A study of Mus musculus with 8 samples.

Results

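The 9 genes described here are carried by mitochondrial DNA and encode subunits of the respiratory chain and of ATP synthase. They were taken by name from the deposited tables, in which they are 9 of 19879 gene names, and all 9 had transcripts in each of the 8 libraries. RNA was measured in sorted single bone marrow progenitors of mice with CEL-Seq2, a method that captures transcripts at their 3′ ends and counts distinct molecular identifiers per gene and well. The groups were Mof -/+ (heterozygous) plate2 wells, wild type plate2 wells, heterozygous HSC wells and wild type HSC wells, with 2 libraries each. Kat8 (formerly Mof) codes for a histone acetyltransferase that acts on histone H4, and 1 allele of it is affected in the heterozygotes. HSC denotes haematopoietic stem cells, which the design text gates as LSK+CD34-Flt3-CD48-CD150+. The text lists 7 further gates of erythroid, granulocyte-monocyte and megakaryocyte progenitors, and no label assigns a plate2 well to one of them. The labels give neither the kind of Mof allele nor the age, sex or number of mice, so p-values measure the spread between libraries, which may be technical.

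Mouse mitochondrial DNA is a small circle present in many copies per cell. Its heavy-strand transcript is long and carries rRNAs and most mRNAs, with tRNAs between many of them. The mRNAs are released by cutting out the tRNAs, receive poly(A) tails, and are then degraded at their own rates, so genes read from 1 promoter can differ in level. Many stem cells of the blood rely less on respiration than their descendants do, although they hold mitochondria. KAT8 and partners of its NSL complex have been reported at mitochondria and on mitochondrial DNA in human HeLa cells, as background to a comparison by Mof genotype.

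Since CEL-Seq2 reads the 3′ end of a transcript, the last 30 bases of each member's annotated gene are shown, in the order of the members along the heavy-strand transcript. An mRNA may end elsewhere than its annotated gene. Sequences and positions are from GENCODE vM21 (GRCm38, the mm10 build), chromosome M, forward strand, with the letters of the stop codon in capitals.
mt-Nd1: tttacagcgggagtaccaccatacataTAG
mt-Nd2: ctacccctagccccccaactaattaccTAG
mt-Co1: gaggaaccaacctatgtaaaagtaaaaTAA
mt-Co2: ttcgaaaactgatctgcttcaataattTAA
mt-Atp6: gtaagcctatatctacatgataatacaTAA
mt-Co3: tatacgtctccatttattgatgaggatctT
mt-Nd4: gtccaaaactaattacaggcctgacaataT
mt-Nd5: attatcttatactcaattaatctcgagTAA
mt-Cytb: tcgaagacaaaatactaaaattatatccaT
The annotated genes of mt-Co3, mt-Nd4 and mt-Cytb end in a single T, 1 base past the last full codon, and the poly(A) tail completes such a stop to TAA. The other 6 members carry a full stop codon. The genes are single exons without introns and lie at chrM:2751-3707 (mt-Nd1), chrM:3914-4951 (mt-Nd2), chrM:5328-6872 (mt-Co1), chrM:7013-7696 (mt-Co2), chrM:7927-8607 (mt-Atp6), chrM:8607-9390 (mt-Co3), chrM:10167-11544 (mt-Nd4), chrM:11742-13565 (mt-Nd5) and chrM:14145-15288 (mt-Cytb). Some of them overlap a neighbour. mt-Atp6 starts inside mt-Atp8, which ends at base 7969, and shares base 8607 with mt-Co3. mt-Nd4 starts inside mt-Nd4l, which ends at base 10173, and the end of mt-Nd5 faces the end of mt-Nd6 on the other strand between bases 13552 and 13565. How reads in these overlaps were assigned, whether strand was used and how nuclear copies of mitochondrial sequence were treated are not stated in the labels or files, so members with overlaps could share reads with a neighbour.

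The design text counts 768 single cells, and the tables held 1536 barcodes, of which 96 per library carried most transcripts. A barcode was kept as a well where named genes had at least 1000 transcripts. This left 436 wells, 230 heterozygous and 206 wild type, with 19 of them outside those 96 barcodes (11 of these in wild type plate2 library 1). Within the groups, 13 barcode numbers were kept in both libraries. Kept transcripts per library were 630053 and 677862 in heterozygous plate2, 733925 and 424490 in wild type plate2, 244109 and 201017 in heterozygous HSC, and 99253 and 103010 in wild type HSC. The median well held 8075 to 12515 transcripts in plate2 libraries and 1567 to 2977 in HSC libraries, so plate set and depth go together. Genotype and depth go together within HSC, with medians of 2921 and 2977 in heterozygous and 1600 and 1567 in wild type libraries. Kat8 itself had 9 and 12 transcripts in heterozygous plate2 libraries, 10 and 4 in wild type plate2 libraries, 1 and 2 in heterozygous HSC libraries and 1 and 2 in wild type HSC libraries, which is too few to check the genotype labels. The HSC label was checked against 15 stem cell markers, whose summed level was 963 to 1739 CPM (counts scaled to a common library total) in plate2 libraries and 5117 to 6989 CPM in HSC libraries, with Slamf1 at 0 in wild type HSC library 1. Wild type HSC library 1 stood apart with 17329 CPM over the 15 of 16 erythroid markers in the tables, against 1846 to 6179 CPM in the other 7 libraries.

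Together the 9 members made up 4.27% and 4.58% of transcripts in heterozygous plate2 libraries, 4.43% and 4.84% in wild type plate2 libraries, 7.62% and 6.73% in heterozygous HSC libraries, and 6.39% and 7.93% in wild type HSC libraries. The 4 plate2 libraries lay below the 4 HSC libraries without overlap. The mean was 4.53% ± 0.239 in plate2 libraries and 7.17% ± 0.727 in HSC libraries (SD, n = 4 each), a difference of -2.64 percentage points with an exact two-sided permutation p of 0.0286, the smallest that 70 assignments allow. A share is relative to the other transcripts of a well, so fewer member transcripts and more of the others cannot be told apart by it. Among own-barcode wells of 1000 to 5000 transcripts, a range that holds 38 plate2 wells but 218 HSC wells, the difference was -0.500 points (exact permutation p = 0.686), and the shares were 3.90% to 8.95% in plate2 libraries and 6.18% to 7.77% in HSC libraries. The plate sets separated in some bins of depth and not in others, and the bins of this window held few plate2 wells. Own-barcode wells of 300 to 1000 transcripts, below the minimum for kept wells, had shares of 6.06% to 7.53% in plate2 libraries and 7.58% to 12.9% in HSC libraries, which do not overlap. Within the window they overlapped at 1000 to 2000 transcripts, with 5.40% to 9.54% in plate2 libraries (17 wells) and 6.38% to 9.15% in HSC libraries. They also overlapped at 2000 to 5000, with 2.79% to 8.94% in plate2 libraries (21 wells) and 5.86% to 7.35% in HSC libraries. The 2.79% was that of wild type plate2 library 1, from 7 wells. These included wells that clustered as mature neutrophil-like, at 0.487% and 0.529%. Wells of 5000 or more, a bin with no upper limit, did not overlap and are given with the correlations of share and depth.

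**Figure D1:**
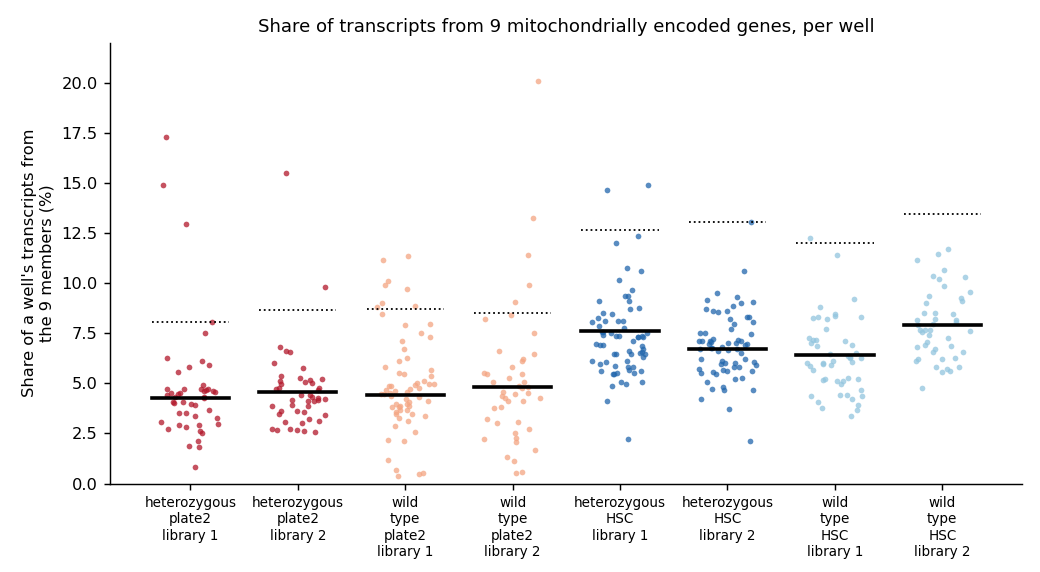
Share of each well's transcripts that came from the 9 members (percent), by library, over 436 wells. Points are wells, solid lines are the pooled share of the kept wells (4.27% to 4.84% in plate2, 6.39% to 7.93% in HSC libraries), and dotted lines are the share in the 96 barcodes that carried few transcripts (8.05% to 8.72% in plate2, 12% to 13.4% in HSC libraries).

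Set against synthetic spike-in RNA instead, the order of the plate sets was the opposite. There were 32.5 and 57.1 member transcripts per spike-in transcript in heterozygous plate2 libraries and 36.7 and 28 in wild type plate2 libraries. The HSC libraries had 1.19 and 0.658 in heterozygotes and 0.899 and 1.41 in wild type. On the log2 scale plate2 libraries averaged 5.22 ± 0.44 and HSC libraries -0.0009 ± 0.48 (SD, n = 4 each), and the difference of 5.22 had an exact permutation p of 0.0286. The kept wells held 544 to 886 spike-in transcripts in plate2 libraries and 5780 to 20532 in HSC libraries. The labels do not state the amount added per well, so unequal spike-in and unequal cell RNA cannot be told apart.

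The genotypes differed in the summed share by less than the libraries of a group did. Heterozygous minus wild type libraries differed by -0.209 percentage points in plate2 and 0.00963 in HSC, and 2 libraries against 2 cannot pass a threshold of 0.05. Over both sets the difference was -0.0996 points (exact permutation within sets, p = 0.778, smallest possible 0.0556). It had the other sign without heterozygous HSC library 2 (0.125), wild type HSC library 2 (0.285) or wild type plate2 library 2 (0.00139 points). Predicted gene models took 11.5% and 9.35% of transcripts in heterozygous plate2 libraries and 17.9% and 21.3% in wild type plate2 libraries. Without those models in the total, the plate2 difference was -0.831 points. Member transcripts per spike-in transcript differed by 0.04 on the log2 scale between heterozygous and wild type libraries (exact permutation p = 1).

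Relative to each other, members differed between plate sets in both directions. In plate2 libraries mt-Co1, mt-Co2 and mt-Atp6, from the middle of the heavy-strand transcript, took a larger part of the members' transcripts than in HSC libraries. The far genes mt-Nd4, mt-Nd5 and mt-Cytb took a smaller part. For these 6 members all 4 plate2 libraries lay on 1 side of all 4 HSC libraries, and each had an exact permutation p of 0.0286, or 0.0429 adjusted over the 9 members. A part of a whole falls when another part rises, so the 6 differences are not independent.

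mt-Co1 encodes the catalytic subunit of cytochrome c oxidase (complex IV), which passes electrons to oxygen. It made up 16.4% and 17.1% of member transcripts in heterozygous plate2 libraries and 18.1% and 16.1% in wild type plate2 libraries. In HSC libraries it made up 11.5% and 15% in heterozygotes and 8.38% and 6.15% in wild type. The mean difference of plate2 minus HSC libraries was 6.69 percentage points, and within the HSC libraries both heterozygous values lay above both wild type values.

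mt-Co2 encodes the complex IV subunit that takes electrons from cytochrome c. Its part was 12.1% and 11.6% in heterozygous plate2 libraries, 11.6% and 11.3% in wild type plate2 libraries, 8.27% and 11% in heterozygous HSC libraries, and 6.95% and 4.75% in wild type HSC libraries. Plate2 minus HSC libraries differed by 3.93 points. mt-Co3, a further complex IV subunit, had 6.65% to 8.58% in plate2 libraries and 6.11% to 7.04% in HSC libraries, which overlap (adjusted exact permutation p = 0.0735). It passed with at least 2000 transcripts per well, at 1.55 points, and over all barcodes, at 1.73 points (adjusted exact permutation p = 0.0367 in both).

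mt-Atp6 encodes the membrane subunit of ATP synthase (complex V) through which protons pass. Its part was 12.5% and 13.2% in heterozygous plate2 libraries, 13.4% and 12.7% in wild type plate2 libraries, 9.63% and 11.6% in heterozygous HSC libraries, and 7.58% and 6.57% in wild type HSC libraries. The difference of plate2 minus HSC libraries was 4.10 points. As for mt-Co1 and mt-Co2, the heterozygous HSC libraries lay between the wild type HSC libraries and the plate2 libraries.

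mt-Nd4 and mt-Nd5 encode subunits of the proton-pumping arm of NADH dehydrogenase (complex I). mt-Nd4 made up 15.4% and 14.5% in heterozygous plate2 libraries, 14.9% and 16.6% in wild type plate2 libraries, 20.3% and 17.9% in heterozygous HSC libraries, and 22.8% and 26.1% in wild type HSC libraries. mt-Nd5 made up 8.92% and 10.1% in heterozygous plate2 libraries, 10.4% and 11.1% in wild type plate2 libraries, 16.9% and 14% in heterozygous HSC libraries, and 20.2% and 20.7% in wild type HSC libraries. Plate2 minus HSC libraries differed by -6.44 points for mt-Nd4 and by -7.82 points for mt-Nd5, and here too the heterozygous HSC libraries lay between the other HSC libraries and plate2. mt-Cytb, the subunit of complex III that holds its quinone sites, had 8.61% to 9.13% in plate2 libraries and 10.1% to 11% in HSC libraries, a difference of -1.89 points.

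mt-Nd1 and mt-Nd2, complex I subunits encoded ahead of the others, did not separate the plate sets. mt-Nd1 took 6.79% to 8.50% in plate2 libraries and 6.12% to 10.4% in HSC libraries. mt-Nd2 took 7.88% to 9.57% in plate2 libraries and 6.76% to 9.03% in HSC libraries.

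**Figure D2:**
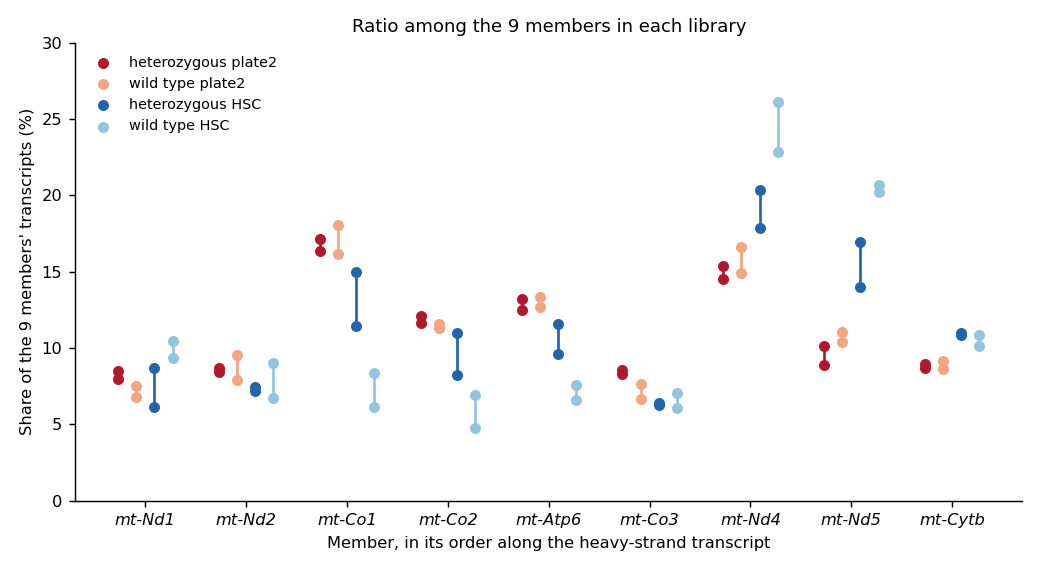
Share of the 9 members' transcripts taken by each member (percent) in each of the 8 libraries, with members in heavy-strand order. Points are libraries and lines join the 2 libraries of a group. mt-Co1, mt-Co2 and mt-Atp6 lay higher in all 4 plate2 libraries than in all 4 HSC libraries, mt-Nd4, mt-Nd5 and mt-Cytb lay lower, and for mt-Co1 and mt-Nd5 the heterozygous HSC libraries lay between the others.

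Without any 1 of the 4 plate2 libraries the 6 differences kept their signs and 0 of the 9 members passed (adjusted exact permutation p 0.0735 to 0.0857 for the 6). The differences were then 6.31 to 6.96 points for mt-Co1, -8.14 to -7.42 for mt-Nd5 and -6.86 to -6.16 for mt-Nd4. With all libraries they were 6.69, -7.82 and -6.44 points in the same order, which lie within these ranges. Without any 1 of the 4 HSC libraries 6 passed. For the 6 the plate sets stayed apart without overlap whichever library was left out. With sets of unequal size, the exact p of a complete separation depends on the spread within each set. The lost calls therefore do not show dependence on a single plate2 library. Among own-barcode wells of 1000 to 5000 transcripts the differences had the same signs with 0 passing, at 5.69 points for mt-Co1 and -6.17 for mt-Nd5. mt-Co1 then made up 13.8% to 19.6% in plate2 libraries and 6.19% to 15.2% in HSC libraries, and mt-Nd5 made up 10.5% to 16.9% in plate2 libraries and 14% to 23.3% in HSC libraries, so both ranges overlapped. In own-barcode wells of 5000 transcripts or more (13 wells in HSC) they did not, with mt-Co1 at 16.5% to 18.5% in plate2 libraries and 6.05% to 14% in HSC libraries, and mt-Nd5 at 8.72% to 10.7% in plate2 libraries and 12.3% to 15.6% in HSC libraries. HSC wells that clustered as erythroid progenitor-like had a median of 8992 transcripts, against 2218 in unnamed HSC wells. The deepest HSC wells, above 7004 transcripts, were all of that class, so this bin mixes classes.

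Between genotypes, no member passed in its part of the members' transcripts, in a design where the smallest exact permutation p of 0.0556 cannot pass. Over both sets the mean heterozygous minus wild type difference was 2.79 points for mt-Co1 (p = 0.222), 2.09 for mt-Co2 (p = 0.0556), -3.09 for mt-Nd4 (p = 0.111) and -3.11 for mt-Nd5 (p = 0.0556), all by exact permutation. For mt-Co2 and mt-Nd5 the permutation within sets gave the smallest p it can give. Adjusted over the 9 members these were 0.25 for mt-Co2 and mt-Nd5. The genotypes did not overlap for mt-Co2 and mt-Nd5 in either plate set. For mt-Co2 in plate2 the nearest values were 11.62% in heterozygous library 2 and 11.58% in wild type library 1. Within 1 set, 2 libraries against 2 have a smallest exact permutation p of 0.333, so a lack of overlap there is weak evidence. For mt-Co1 and mt-Nd4 the genotypes did not overlap in HSC libraries and overlapped in plate2 libraries. The heterozygous HSC wells were also deeper than the wild type ones, and the part of depth in these differences was not tested.

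Single wells showed the same order of plate sets. Among wells with at least 100 member transcripts, mt-Co1 exceeded mt-Nd5 in 38 of 40 (95%) and 33 of 40 (82.5%) wells of heterozygous plate2 libraries and in 39 of 48 (81.3%) and 30 of 39 (76.9%) wells of wild type plate2 libraries. In HSC libraries it did so in 13 of 62 (21%) and 34 of 60 (56.7%) heterozygous wells, and in 1 of 25 (4.0%) and 3 of 37 (8.11%) wild type wells. Wells of a library share its preparation and are not replicates of a condition, so these shares carry no test. The spread of ratios between wells of a library was 2.12 to 4.0 times that of counting error, as chi-square per degree of freedom over 9 members, where counting error alone gives 1.

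Fitted over all 6690 genes that passed the low-count filter, some members passed between plate sets in each genotype. In heterozygotes 3 of the 9 members passed at an adjusted p under 0.05, all lower in plate2, where 22.2% of all genes passed (11.9% higher, 10.3% lower). In wild type 5 of 9 passed, 2 higher and 3 lower in plate2, where 17.8% of all genes passed (9.55% higher, 8.21% lower). The median log2 fold change of the 9 members was -0.28 in heterozygotes and -0.25 in wild type, against 0.05 and 0.08 over all genes tested. The comparisons use different libraries and share 1 estimate of the spread.

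mt-Nd5 fell in both genotypes. It had 3814 and 4641 CPM in heterozygous plate2 libraries against 12904 and 9402 CPM in heterozygous HSC libraries, a log2 fold change of -1.20 ± 0.23 (SE) with an adjusted p of 0.000956 by edgeR. In wild type it had 4612 and 5359 CPM in plate2 libraries against 12947 and 16406 CPM in HSC libraries, a log2 fold change of -1.30 ± 0.23 (adjusted p = 0.000587, edgeR). No plate2 library reached the lowest HSC library. mt-Nd4 fell as well, at -0.86 ± 0.22 in heterozygotes (adjusted p = 0.00879) and -1.02 ± 0.22 in wild type (adjusted p = 0.00364), on the same scale and by the same edgeR fit. Its levels were 6574 and 6644 CPM in heterozygous plate2 libraries, 15505 and 12014 CPM in heterozygous HSC libraries, 6608 and 8031 CPM in wild type plate2 libraries, and 14599 and 20736 CPM in wild type HSC libraries. The mt-Nd4 call was lost in heterozygotes without either heterozygous plate2 library or heterozygous HSC library 1 (-0.65 to -0.87, adjusted p 0.0822 to 0.111, edgeR). In wild type it was lost without wild type HSC library 2 or wild type plate2 library 1 (-0.67 and -0.85, adjusted p = 0.0941 and 0.0661, edgeR).

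mt-Cytb fell in heterozygotes, with 3828 and 3980 CPM in plate2 libraries against 8300 and 7412 CPM in HSC libraries, a log2 fold change of -0.81 ± 0.22 (adjusted p = 0.0106, edgeR). This call was lost without either heterozygous plate2 library or heterozygous HSC library 1 (adjusted p 0.0623 to 0.139, edgeR). In wild type its log2 fold change was -0.61 ± 0.22 and did not pass (adjusted p = 0.0547, edgeR), but it passed with library size alone (-0.85, adjusted p = 0.00975), over all barcodes (-0.75, adjusted p = 0.00863) and with whole identifiers (-0.63, adjusted p = 0.0446, all edgeR). mt-Nd1 fell in wild type, with 3335 and 3286 CPM in plate2 libraries against 5975 and 8281 CPM in HSC libraries, a log2 fold change of -0.85 ± 0.25 (adjusted p = 0.0219, edgeR). Wild type HSC wells of 5000 transcripts or more numbered 1 in library 1 and 2 in library 2. They held 1058 and 2264 of the 6347 and 8173 member transcripts, and mt-Nd1 made up 13.8% and 15.7% there. In own-barcode wells of 1000 to 5000 transcripts of these libraries mt-Nd1 made up 8.45% and 8.41%. The mt-Nd1 call was lost with wells thinned to 1000 transcripts (-0.40, adjusted p = 0.197, edgeR). It was also lost when any 1 of the 4 plate2 libraries (adjusted p 0.0623 to 0.122, edgeR) or the second wild type HSC library was left out (-0.53, adjusted p = 0.252, edgeR). In the interaction of genotype and plate set, which tests whether such changes differ between genotypes, no member passed.

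mt-Co1 rose in wild type plate2 libraries, which had 8013 and 7809 CPM, against 5360 and 4883 CPM in wild type HSC libraries, a log2 fold change of 0.89 ± 0.21 (adjusted p = 0.00624, edgeR). In heterozygotes it had 6990 and 7851 CPM in plate2 libraries against 8730 and 10059 CPM in HSC libraries, a log2 fold change of -0.14 ± 0.21 (adjusted p = 0.651, edgeR). mt-Co2 rose in wild type by 0.63 ± 0.22 (adjusted p = 0.0489, edgeR), with 5135 and 5477 CPM in plate2 libraries against 4443 and 3767 CPM in HSC libraries. The mt-Co2 call was lost under 8 other settings and without any 1 of 5 libraries (wild type HSC library 2 or any plate2 library), with adjusted p of 0.0531 to 0.227 by edgeR or DESeq2. mt-Atp6 at 0.52 ± 0.21 (adjusted p = 0.0951), mt-Co3 at -0.24 ± 0.22 and mt-Nd2 at -0.25 ± 0.25 did not pass in wild type by edgeR, nor in heterozygotes, where the log2 fold changes were -0.21, -0.09 and -0.28. In wild type mt-Atp6 passed without the low-count filter (0.67, adjusted p = 0.0245) and with wells thinned to 1000 transcripts (0.58, adjusted p = 0.0463, edgeR). CPM here are not scaled by TMM, whereas fold changes are.

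**Figure D3:**
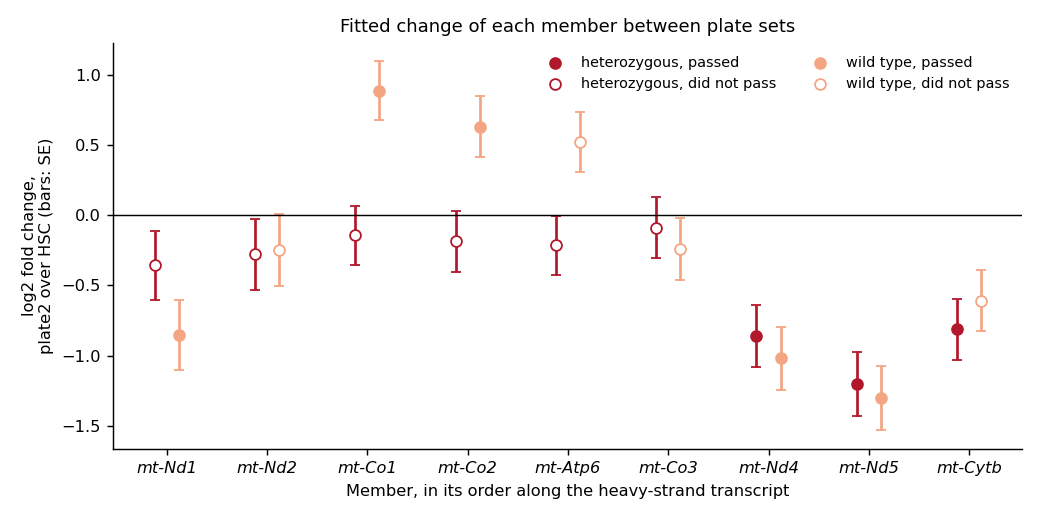
Fitted log2 fold change of each member, plate2 over HSC, in heterozygotes (left point) and wild type (right point), with members in heavy-strand order. Bars are standard errors and filled points passed at an adjusted p under 0.05 (edgeR): mt-Nd4 and mt-Nd5 passed below 0 in both genotypes, mt-Cytb in heterozygotes, mt-Nd1 in wild type, and mt-Co1 and mt-Co2 passed above 0 in wild type.

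These calls changed with single libraries and with depth. In wild type 2 members passed without wild type plate2 library 1 or wild type HSC library 2, and 3 passed without wild type plate2 library 2 or either heterozygous plate2 library. In heterozygotes 1 member passed, instead of 3, without either heterozygous plate2 library or heterozygous HSC library 1. Among own-barcode wells of 1000 to 5000 transcripts 0 members passed in either genotype and the median log2 fold change of all genes was -0.30 in heterozygotes and -0.23 in wild type. All 9 members were then above 0 in both genotypes, including mt-Nd5 at 0.50 in heterozygotes and 0.09 in wild type. These fold changes are scaled by TMM. The unscaled summed share there was 3.90% and 6.87% in wild type plate2 libraries, against 6.18% and 7.77% in wild type HSC libraries. In heterozygotes it was 8.95% and 5.94% in plate2 libraries, against 7.05% and 6.65% in HSC libraries. The part of mt-Nd5 among the members differed by -6.17 points, plate2 minus HSC. The part of the scaling in these signs was not tested. With library size alone as the scaling, the median of all genes lay at -0.16 in both genotypes and 3 members passed in heterozygotes (0 higher, 3 lower) and 5 in wild type (1 higher, 4 lower).

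Between genotypes 0 of 9 members passed in plate2 libraries (0.553% of all genes passed, 0.0299% higher and 0.523% lower), in HSC libraries (0.0149%), in the interaction of genotype and plate set (0%) and over both sets (0.135%, of which 0.0149% higher and 0.12% lower). At an unadjusted p under 0.05, 339 of the 6690 genes lay below the threshold in plate2, 722 in HSC, 602 in the interaction and 399 over both sets. DESeq2 also passed 0 members in these 4 comparisons. The members' median log2 fold change was -0.22 in plate2 and -0.11 in HSC libraries, with all genes at -0.000584 and 0.03. The member with the smallest p was mt-Co1 in HSC libraries, with 8730 and 10059 CPM in heterozygotes against 5360 and 4883 CPM in wild type. Its log2 fold change was 0.81 ± 0.21 and its adjusted p 0.188 (unadjusted 0.000931, edgeR). Without the low-count filter the same gene passed, at 0.88 with an adjusted p of 0.00605. In plate2 its log2 fold change was -0.23 ± 0.21, and the interaction, plate2 minus HSC, was -1.03 ± 0.29 with an adjusted p of 0.306 (edgeR).

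In plate2 the genotypes also differed in markers of mature neutrophils, of which 9 of 10 were tested. Of these 9, 7 fell in heterozygotes, where 0.523% of all genes fell. Their summed level was 298 and 17.7 CPM in heterozygous plate2 libraries and 2622 and 2028 CPM in wild type plate2 libraries, and Retnlg, Lcn2, Ngp and Mmp9 were at 0 in both heterozygous libraries. Wells that clustered as mature neutrophil-like numbered 3 of 65 and 3 of 45 in wild type plate2 libraries and 0 in heterozygous plate2 libraries. The part of these few wells in the fall of the markers was not tested. Without these wells, the plate2 share of the members differed by -0.284 points between heterozygotes and wild type, against -0.209 with them. In HSC libraries the same markers summed to 1106 and 2079 CPM in heterozygotes and to 5320 CPM and 0 in wild type, where library 2 had all 10 at 0. Without the mature neutrophil-like wells the HSC difference between heterozygotes and wild type was -0.0534 points, against 0.00963 with them, so its sign turned.

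The tables hold 6 other mitochondrially encoded genes. mt-Rnr1 and mt-Rnr2, the rRNAs of the mitochondrial ribosome, numbered 2.08 and 2.25 transcripts per member transcript in heterozygous plate2 libraries and 2.24 and 1.98 in wild type plate2 libraries. HSC libraries had 0.909 and 1.04 in heterozygotes and 1.43 and 1.24 in wild type, so the plate sets did not overlap. With the rRNAs included, mitochondrially encoded transcripts made up 13.4% to 15.2% of the total in plate2 libraries and 14% to 18% in HSC libraries, which overlap. In heterozygotes 4 of 6 of these genes rose in plate2, where 11.9% of all genes rose. Among them were mt-Rnr1 at 0.73 ± 0.23 (adjusted p = 0.0275) and mt-Rnr2 at 0.63 ± 0.16 (adjusted p = 0.00828, both log2 fold changes by edgeR). In wild type 2 of 6 rose, where 9.55% of all genes rose.

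The genes that passed in both genotypes were mt-Atp8 and mt-Nd6. mt-Atp8, the ATP synthase gene that overlaps the start of mt-Atp6, had 235 and 294 transcripts in heterozygous plate2 libraries against 23 and 26 in heterozygous HSC libraries, and 435 and 280 in wild type plate2 libraries against 14 and 5 in wild type HSC libraries. Its log2 fold change was 2.05 ± 0.34 in heterozygotes and 2.99 ± 0.39 in wild type (adjusted p = 0.000276 and 2.49e-05, edgeR). mt-Nd6, the complex I gene on the other strand whose end faces that of mt-Nd5, had 128.6 and 98.84 CPM in heterozygous plate2 libraries against 40.97 and 49.75 CPM in heterozygous HSC libraries, and 193.5 and 167.3 CPM in wild type plate2 libraries against 30.23 and 9.71 CPM in wild type HSC libraries. The wild type HSC values rest on 3 and 1 transcripts, so no fold is given for wild type. Its log2 fold change in heterozygotes was 1.52 ± 0.39 (adjusted p = 0.00779, edgeR). mt-Nd3 and mt-Nd4l, complex I genes that lie between mt-Co3 and mt-Nd4, did not pass between plate sets in either genotype. Without strand in the counting, reads of mt-Nd5 and mt-Nd6 in their overlap could not be told apart.

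Respiratory complexes also need subunits encoded in the nucleus, of which 77 of a list of 78 were tested. Between genotypes 0 passed. In plate2 73 of the 77 had a positive log2 fold change in heterozygotes over wild type, with a median of 0.36. All genes tested had a median of -0.000584 there. Of the 9 mitochondrially encoded members 7 had a negative log2 fold change, and 0 passed. The difference between the nuclear list and the members was not tested. In HSC libraries the split of the 77 was 39 positive and 38 negative. Between plate sets 25 rose and 1 fell in heterozygous plate2 libraries, and 19 rose and 4 fell in wild type plate2 libraries, with medians of 0.78 in heterozygotes and 0.48 in wild type. Of all genes tested, 11.9% rose and 10.3% fell in heterozygous plate2 libraries, and 9.55% rose and 8.21% fell in wild type plate2 libraries. Among them were Cox5a of complex IV, at 2.54 ± 0.35 in heterozygotes and 2.96 ± 0.54 in wild type, Sdhb of complex II, at 2.04 ± 0.43 in heterozygotes and 2.63 ± 0.70 in wild type, and Uqcrb of complex III, at 2.08 ± 0.41 in heterozygotes and 2.18 ± 0.54 in wild type (log2 fold changes). Cox7a2l, which helps to join complexes III and IV, fell, at -1.48 ± 0.29 in heterozygotes and -2.25 ± 0.30 in wild type. All 4 passed in both genotypes by edgeR.

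Of 38 genes for mitochondrial DNA upkeep, transcription and RNA handling, 21 were tested. Between genotypes 0 passed, and Tfam, which packages mitochondrial DNA and starts its transcription, had a log2 fold change of 1.39 ± 0.63 in heterozygous over wild type HSC libraries (adjusted p = 0.424, edgeR). In plate2 against HSC libraries 2 rose in heterozygotes, where 11.9% of all genes rose and 10.3% fell, and 4 rose and 3 fell in wild type, where 9.55% of all genes rose and 8.21% fell. Slirp, which binds mitochondrial mRNAs together with Lrpprc, rose in both, by 1.33 ± 0.48 in heterozygotes (adjusted p = 0.0497) and 2.73 ± 0.83 in wild type (adjusted p = 0.028, edgeR). Pnpt1, a mitochondrial RNA exonuclease, was the other gene that rose in heterozygotes (adjusted p = 0.0154, edgeR).

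Depth within a library went with the share to a varying degree. Spearman's rho of share against transcripts per well was -0.10 and 0.24 in heterozygous plate2 libraries (48 and 46 wells), -0.36 and -0.18 in wild type plate2 libraries (65 and 45 wells), -0.06 and -0.20 in heterozygous HSC libraries (68 and 68 wells), and -0.16 and -0.21 in wild type HSC libraries (50 and 46 wells). The share is also a part of the total on the other axis. In own-barcode wells of 5000 transcripts or more the share was 4.14% to 4.65% in plate2 libraries and 7.07% to 8.98% in HSC libraries (13 wells). The deepest of these HSC wells clustered as erythroid progenitor-like, a class with shares of 7.65% to 14.7% in HSC wells of any depth. The 14.7% was that of a well of 1071 transcripts in heterozygous HSC library 1. In own-barcode wells under 300 transcripts the share was 5.15% to 8.25% in plate2 libraries and 9.45% to 11.2% in HSC libraries.

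**Figure D4:**
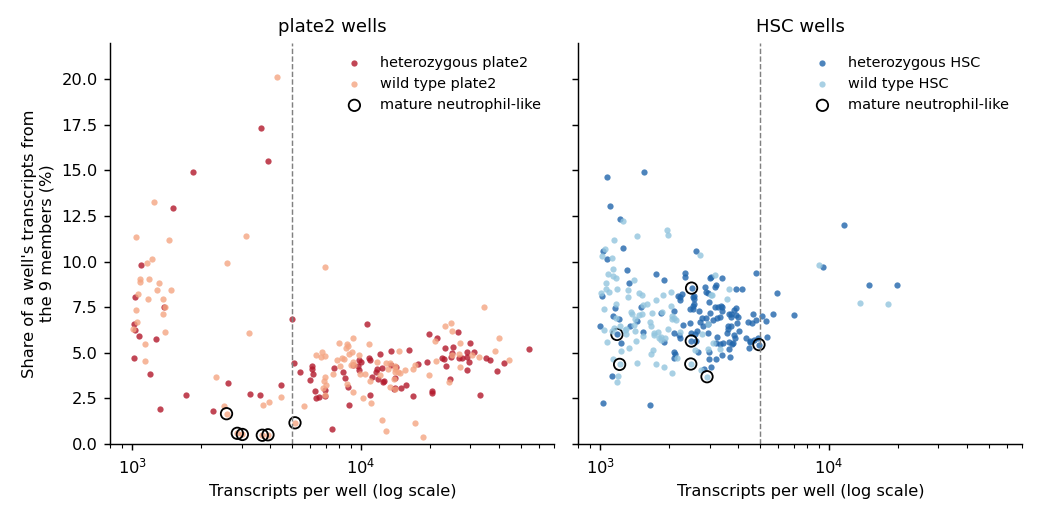
Share of each well's transcripts from the 9 members (percent) against transcripts per well (log scale) in plate2 wells (left) and HSC wells (right). Points are kept wells, circled points clustered as mature neutrophil-like, and the dashed line marks 5000 transcripts. Circled plate2 wells lay at 0.487% to 1.67% and circled HSC wells at 3.69% to 8.55%.

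The ratio among members moved with depth too. In own-barcode wells under 300 transcripts mt-Nd4 and mt-Nd5 together took 30.2% to 41.2% of member transcripts in plate2 libraries and 49.3% to 57.9% in HSC libraries. In wells of 5000 transcripts or more they took 24% to 27.1% in plate2 libraries and 30.6% to 41.3% in HSC libraries. In the 96 barcodes that carried few transcripts, whose wells' content the labels do not state, they took 41.7% to 48.3% in plate2 libraries and 57.3% to 59.98% in HSC libraries. mt-Co1 there took 8.0% to 10.3% in plate2 libraries and 4.11% to 4.65% in HSC libraries, below the kept wells of every library of its set. These barcodes held 2.29% to 5.37% of transcripts in plate2 libraries and 8.12% to 13.6% in HSC libraries. How much of such transcripts the kept wells hold was not tested.

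**Figure D5:**
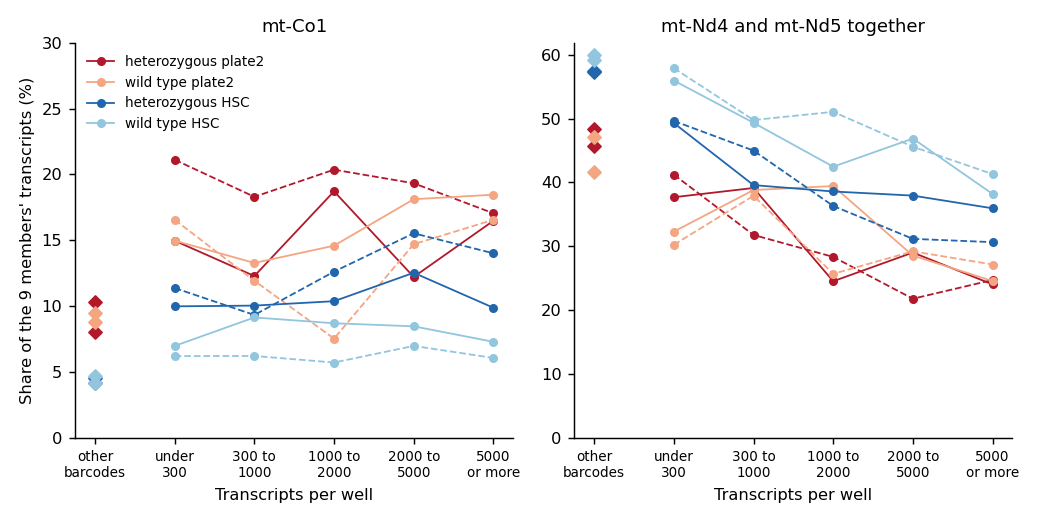
Share of the 9 members' transcripts (percent) taken by mt-Co1 (left) and by mt-Nd4 and mt-Nd5 together (right), by transcripts per well. Lines are libraries over own-barcode wells (solid library 1, dashed library 2) and diamonds are the other barcodes. The diamonds for mt-Nd4 and mt-Nd5 lay at 41.7% to 48.3% in plate2 and 57.3% to 59.98% in HSC libraries, and the points at 5000 or more transcripts at 24% to 27.1% in plate2 and 30.6% to 41.3% in HSC libraries.

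By position in the table, in consecutive blocks of 12 own barcodes, the share was above that of the whole library in block 8 in 4 of 4 plate2 and 3 of 4 HSC libraries. In block 4 it was above in 0 of 4 plate2 and 1 of 4 HSC libraries. These are the extremes of 8 blocks in plate2 libraries. In heterozygous plate2 library 1 block 8 had 4.283%, against 4.274% for the library. In heterozygous plate2 library 2 it had 4.85%, against 4.58%, from 2 wells with 2456 transcripts. The first 48 barcodes had the higher share in 3 of the 8 libraries. No gate is given for a position, so a position cannot be told apart from a gate or a plate column.

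Wells were clustered on genes other than the mitochondrially encoded ones, and a cluster was named from the markers among its 50 leading genes that were detected in at least 50% of its wells. It needed at least 3 of 1 cell type, more than of any other type, and no other type with more markers among its 10 leading genes. This named 62 erythroid progenitor-like and 13 mature neutrophil-like wells, and all other wells stayed unnamed. Cluster 8, with 24 wells, all of plate2, was led by 5 monocyte and dendritic markers (F13a1, Ly6c2, Irf8, Csf1r and Ly86) and by 4 neutrophil progenitor markers, which had more of the 10 leading genes, so it stayed unnamed. In plate2, erythroid progenitor-like wells had a share of 4.30% and 4.91% in heterozygous libraries, against 4.26% and 4.37% in the rest of their wells. In wild type plate2 libraries they had 5.20% and 6.89%, against 4.17% and 4.05% in the rest. The share was higher in erythroid progenitor-like wells in 4 of 4 libraries, by 1.12 ± 1.22 points (SD), with an exact permutation p of 0.125, the smallest that 4 libraries allow. These wells were also deeper, with a median of 15639 transcripts, against 9335 in unnamed plate2 wells.

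The ratio among members was also compared by class in plate2, as a description. mt-Nd1 made up 10.4%, 9.55%, 9.16% and 8.31% of member transcripts in erythroid progenitor-like wells, against 7.42%, 6.88%, 6.83% and 5.80% in the rest, in heterozygous libraries 1 and 2 and wild type libraries 1 and 2. mt-Nd5 made up 8.15%, 9.10%, 8.19% and 9.78% in erythroid progenitor-like wells, against 9.37%, 10.9%, 11.3% and 11.9% in the rest, in the same order. mt-Nd1 was thus higher and mt-Nd5 lower in the class in 4 of 4 libraries, and 4 libraries cannot pass an exact test at 0.05. mt-Co1 was lower in the class in 4 of 4 as well, at 14% to 16.8% against 17.4% to 18.6%.

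In plate2, mature neutrophil-like wells lay below all erythroid progenitor-like wells. The 6 such wells of plate2, all wild type, held 0.487% to 1.67% member transcripts with a median of 0.560%, from 16 to 60 member transcripts per well. The 7 of the HSC libraries held 3.69% to 8.55% with a median of 5.45%, which overlaps the erythroid progenitor-like wells there (7.65% to 14.7%). The mature neutrophil-like plate2 wells of lowest share had 25.1% to 58.9% of their transcripts from predicted gene models. Over all kept wells of the wild type plate2 libraries these models took 17.9% and 21.3%. They enter the total of a share, and their part in the low shares was not tested. Mature neutrophils are known for glycolytic metabolism and few mitochondria. Over all kept wells the share ran from 0.381% to 20.1%. The lowest well, in wild type plate2 library 1, held 71 member transcripts of 18650 and 84.1% of its transcripts were from predicted gene models. The highest, in wild type plate2 library 2, held 858 of 4270, with 37.3% from predicted gene models.

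Of 3226 other named genes with a mean of at least 50 CPM, the 5 most like the summed members over the 8 libraries were Tln1, Eef2k, Ngfrap1, Lgals3bp and Ankrd46, by Pearson correlation of log2(CPM + 1). Their r was 0.991, 0.989, 0.989, 0.988 and 0.985. Tln1, a cytoskeletal linker of integrins, had 287 and 273 CPM in heterozygous plate2 libraries, 283 and 316 CPM in wild type plate2 libraries, 602 and 522 CPM in heterozygous HSC libraries, and 443 and 612 CPM in wild type HSC libraries. The libraries fall into the 2 plate sets, so these values describe a likeness over 2 clusters of libraries that share depth, and they carry no test.

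Transcripts of the nucleus were compared as a check of RNA quality. Malat1, a nuclear long noncoding RNA, had 3279 and 2706 CPM in heterozygous plate2 libraries, 2842 and 4841 CPM in wild type plate2 libraries, 6735 and 6994 CPM in heterozygous HSC libraries, and 4987 and 3242 CPM in wild type HSC libraries. It fell in plate2 in heterozygotes (log2 fold change -1.003 ± 0.26, adjusted p = 0.00981, edgeR), and in wild type it was at 0.16 ± 0.26 (adjusted p = 0.705, edgeR). Neat1, another nuclear RNA, fell in heterozygotes, at -1.93 ± 0.36 (adjusted p = 0.000837, edgeR), and in wild type it was at -0.14 ± 0.44 (adjusted p = 0.856, edgeR). Kcnq1ot1, the other tested RNA of this list, rose in wild type, at 1.19 ± 0.27 (adjusted p = 0.00484, edgeR), and was at 0.29 ± 0.26 in heterozygotes (adjusted p = 0.445, edgeR). The part of RNA quality in the members' differences was not tested.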

How the data were processed

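The authors deposited expected counts (transcripts estimated from molecular identifiers, without depth scaling), and each value equals a whole number of identifiers of 4096 possible ones after correction for repeated use (largest deviation 3.64e-12). Per the submitters' processing notes, reads were handled with BWA 0.6.2-r126 and mm10. Neither annotation nor counter is given in the sources used here. Rows without a gene name held 0% of counts, 70 spike-in rows stayed out of totals, and 0 columns were left unused. A well held at most 429 identifiers of a member. The members and all lists were chosen with earlier results of these data known.

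Values were rounded, summed over kept wells per library and fitted with edgeR 4.0.16 in R 4.3.3 (TMM, filterByExpr, quasi-likelihood test, two-sided, Benjamini-Hochberg over 6690 genes). The 4 groups entered a one-way layout, and the effect over both sets had plate set as a term. The fit was tested on simulated data. Summed shares and parts among members were compared by exact permutation over libraries. Named genes were the members, the other mitochondrially encoded genes, Malat1, Neat1, Kat8, up to 4 genes of smallest p per list and comparison, and the 5 genes of most similar pattern. Lists outside the members are described by counts.

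Clusters used scanpy 1.11.5 and igraph 0.11.9 (2000 variable genes, 15 components, 15 neighbours, Leiden resolution 1). Wells were sorted, so no doublet caller was run. Tests and plots ran in Python 3.11.15 with scipy 1.17.1, numpy 2.4.6, matplotlib 3.10.9 and pandas 2.3.3.

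Alternatives were RLE scaling, library size alone, scaling without mitochondrially encoded genes, DESeq2 1.42.0, a fit of all genes with no filter, a stricter well minimum of 2000 transcripts, all barcodes, thinning to 1000 transcripts, own barcodes only, whole identifiers, equal weight per well, a total without predicted models, a replicate block, the 4 libraries of a set alone, Leiden resolutions 0.5 and 2, and leaving out each library. Own-barcode wells of 1000 to 5000 transcripts, the erythroid class against the rest, the share without mature neutrophil-like wells and a block with crossed HSC numbers were added after seeing the data. Counting error alone is covered where depth is given.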

Additional observations from a re-analysis of the deposited data

Results flagged for a closer look

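The barcodes that carried few transcripts of a library held members at a higher share than its kept wells. In these 96 barcodes the members made up 8.05% and 8.64% of transcripts in heterozygous plate2 libraries, 8.72% and 8.51% in wild type plate2 libraries, 12.6% and 13.1% in heterozygous HSC libraries, and 12% and 13.4% in wild type HSC libraries. These values come from 1413 to 2797 member transcripts per library, and the comparisons of the kept wells use few of these barcodes.

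The part of mt-Nd1 among the members moved in opposite directions with genotype in the plate sets. Heterozygous minus wild type was 1.09 percentage points in plate2 libraries, where both heterozygous values lay above both wild type values, and -2.50 points in HSC libraries, where both lay below. The difference between the plate sets was not tested for this part. In the edgeR fit of mt-Nd1 itself the interaction, plate2 minus HSC, was 0.50 ± 0.35 on the log2 scale (adjusted p = 0.690).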

How the results depend on the processing

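Among own-barcode wells of 1000 to 5000 transcripts 0 members passed in either plate2 against HSC comparison, and 0 differed in their part of the members. Log2 fold changes of plate2 over HSC that turned sign there were, in heterozygotes, 1.49 for mt-Atp6, 1.30 for mt-Co1, 1.20 for mt-Co2, 1.40 for mt-Co3, 0.48 for mt-Cytb, 1.17 for mt-Nd1, 1.48 for mt-Nd2, 0.73 for mt-Nd4 and 0.50 for mt-Nd5. In wild type they were 0.60 for mt-Co3, 0.38 for mt-Cytb, 0.52 for mt-Nd1, 1.35 for mt-Nd2, 0.25 for mt-Nd4 and 0.089 for mt-Nd5. For heterozygous over wild type plate2 libraries mt-Co1 was at 0.31. The summed share there differed by -0.500 points for plate2 minus HSC, and by 2.05 (plate2) and 0.963 (both sets) for heterozygous minus wild type, and the part of mt-Cytb by -0.0324 between genotypes. The fold changes are scaled by TMM and the shares are not. The cause of the turned signs, the scaling included, was not tested, and this setting holds fewer wells. Thinning gave 0.11 for mt-Nd2 (wild type) and 0.028 for mt-Co1 (heterozygous), plate2 over HSC. Without the low-count filter mt-Co3 was at 0.00655 (heterozygous, plate2 over HSC) and 1 member passed between HSC genotypes. A total without predicted models gave -0.831 points for the plate2 genotype difference. Member transcripts per spike-in transcript, heterozygous over wild type, were at -0.26 (log2) with at least 2000 transcripts per well and -0.00759 over all barcodes.

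Leaving out 1 library gave 1 to 3 passing members for plate2 over HSC in heterozygotes, 2 to 5 in wild type, and 0 to 6 for the parts among members. The genotype difference of the summed share ranged from -0.484 to 0.285 points and that of the spike-in ratio from -0.18 to 0.25 (log2). Log2 fold changes of plate2 over HSC that turned sign ranged from -0.52 to 0.23 for mt-Nd2 (wild type), -0.21 to 0.032 for mt-Co3 and -0.69 to 0.038 for mt-Nd1 (both heterozygous), and the genotype difference in the part of mt-Nd2 from -0.930 to 0.205 points.

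Same-numbered HSC libraries did not deviate together (r = -0.17 over 3544 genes), and plate2 numbers only name a library, so the numbers were not taken as a pairing. With the replicate block for the HSC numbers 0 members passed in each genotype comparison, as without it. With crossed HSC numbers in the block, added after seeing the data, 1 passed in HSC libraries. Plate2 against HSC comparisons were not fitted with a block. The planned comparison between named classes was not run, since no library held 5 wells of each class.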
